A study of Mus musculus with 2 samples.

Results

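Tmem119, Fcrls, Olfml3, Slc2a5, Sparc, Selplg and Crybb1 are 7 genes whose transcripts mark microglia, and they were followed here as a set, 7 of the 32285 genes in the count tables, each found by its symbol. The cells came from the brains of 23-week-old male littermates, wild-type (Disc1 WT/WT, the WT library) or homozygous for the Disc1 locus impairment (Disc1 LI/LI, the LI library). Each library was made from the pooled brains of 6 mice, so there was 1 library per genotype, no replicate check and no test, and values within a library say nothing about single mice. All samples were dissociated with actinomycin D, a transcription blocker, and sorted as CD45low CD11b+ cells before droplet 3′ counting of unique molecular identifiers (UMIs, each standing for 1 captured transcript). None of the 7 genes was used to choose cells.

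Microglia are the macrophages that live in the brain tissue itself. They keep a set of transcripts that blood-derived monocytes, neutrophils and the macrophages of the meninges and vessel borders make at lower levels, and this set depends on transforming growth factor-β signaling and on transcription factors such as PU.1. Among the 7, Tmem119 is a transmembrane protein widely used as a microglial label, Fcrls is a scavenger receptor-like member of the Fc receptor family, and Slc2a5 is the fructose transporter GLUT5. Olfml3 and Sparc are secreted proteins of the extracellular matrix, Selplg is the selectin ligand PSGL-1 that leukocytes use to roll on vessel walls, and Crybb1 is a β-crystallin first known from the lens.

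On mouse build mm10 (GENCODE M21), Tmem119 lies at chr5:113793729-113800516 and Selplg at chr5:113818536-113832644, both on the minus strand and 18019 bases apart with 1 annotated gene, Gm19931, between them. Crybb1 lies on the same chromosome at chr5:112255815-112269585, plus strand. Fcrls (chr3:87250758-87263738) and Olfml3 (chr3:103722222-103738001) share another chromosome, both on the minus strand. Slc2a5 lies at chr4:150119283-150144169, plus strand, and Sparc at chr11:55394500-55423183, minus strand. No other annotated gene overlapped any of the 7.

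RefSeq promoters (GRCm38.p6, 250 bases before to 50 bases after a start site) were at hand for Fcrls, Olfml3, Slc2a5, Sparc and Crybb1 and not for Tmem119 and Selplg. Those of Fcrls (chr3:87263475-87263774, minus strand), Sparc (chr11:55420031-55420330, minus strand) and Crybb1 (chr5:112255570-112255869, plus strand) are printed because these genes give the pattern shared with border macrophages, the yardstick for the other genes, and the pattern in monocyte-gate cells described further on. Capitals mark matches, on either strand, to GAGGAA (the PU.1 core), CAGACA (SMAD), TGANTCA (AP-1) and TATAAA (the TATA box). A PU.1-IRF composite element and a MEF2 element were searched for too.
Fcrls: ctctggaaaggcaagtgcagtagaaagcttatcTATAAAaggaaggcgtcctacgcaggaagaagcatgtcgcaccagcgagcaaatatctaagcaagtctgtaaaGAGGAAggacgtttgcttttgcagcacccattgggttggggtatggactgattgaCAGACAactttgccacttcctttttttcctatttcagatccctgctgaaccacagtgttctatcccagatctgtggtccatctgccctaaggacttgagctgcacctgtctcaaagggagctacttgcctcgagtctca
Sparc: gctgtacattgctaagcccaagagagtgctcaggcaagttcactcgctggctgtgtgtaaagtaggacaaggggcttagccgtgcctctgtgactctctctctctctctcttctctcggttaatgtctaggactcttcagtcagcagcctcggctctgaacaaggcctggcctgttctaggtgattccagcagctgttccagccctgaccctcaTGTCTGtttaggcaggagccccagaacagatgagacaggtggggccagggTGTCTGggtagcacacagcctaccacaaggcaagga
Crybb1: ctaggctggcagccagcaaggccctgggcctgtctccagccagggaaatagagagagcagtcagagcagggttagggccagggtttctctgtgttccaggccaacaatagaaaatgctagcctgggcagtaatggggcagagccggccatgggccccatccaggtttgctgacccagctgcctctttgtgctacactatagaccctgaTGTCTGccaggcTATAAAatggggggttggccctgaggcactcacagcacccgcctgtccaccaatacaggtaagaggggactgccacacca

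CAGACA, the sequence read by the SMAD proteins downstream of transforming growth factor-β, was in 4 of the 5 promoters, those of Fcrls, Slc2a5, Sparc and Crybb1, and in 21.0% of all 32851 promoters of that length. TATAAA was in 2 of the 5 (13.6% of all promoters). Counted from 0 at the start site, it stood from -30 to -25 in Crybb1 and from -217 to -212 in Fcrls. GAGGAA was in 1 of the 5, that of Fcrls, from -144 to -139, against 28.3% of all promoters. None of the 5 held TGANTCA (7.81% of all promoters), the PU.1-IRF element (2.72%) or the MEF2 element (3.69%). No motif match overlapped another in the 3 sequences shown. The RefSeq start sites of these 3 lie inside the GENCODE gene spans. A match says only that these letters are there.

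Files of the WT library held 7038 barcodes and 33601957 UMIs, the LI library 7834 barcodes and 47731571 UMIs, and 12 barcodes were in both. After barcodes under 200 genes or over 10% mitochondrial UMIs were dropped, 7032 and 7817 remained. Microglia were cells with at least 0.2% of UMIs from P2ry12 and Gpr34 and under 1% from S100a8 and S100a9, split at 0.5% Malat1 into Malat1-rich (5744 WT and 1780 LI cells) and Malat1-poor (437 and 146). Border macrophages (179 and 49 cells) carried at least 3 of 6 of their markers with the gate share under 0.2%, and neutrophils (116 and 3622) at least 3% of UMIs from S100a8 and S100a9. Microglia were 87.9% of the WT cells and 24.6% of the LI cells from the same CD45low CD11b+ sort. Levels are given as CPM, the UMIs of a gene per 1000000 UMIs of its class of cells. Disc1, the targeted gene, was at 21.2 CPM in WT and 2.32 in LI Malat1-rich microglia. In these cells a separate list of 7 microglial markers, the 2 gate genes among them, summed to 23461 CPM in WT and 20829.8 in LI, with every gene of the list detected. Summed neutrophil markers were at 186 and 1301 CPM, hemoglobin genes at 341 and 19.6, monocyte markers at 118 and 292, border macrophage markers at 98.9 and 37.8, lymphocyte markers at 13.8 and 84.4, cycling genes at 18.8 and 16.8, endothelial markers at 28.9 and 17.9, oligodendrocyte markers at 21.7 and 20.01, and astrocyte markers at 0.854 and 0.387, with 1 of their 3 genes detected in LI. The higher neutrophil RNA in LI microglia moves with every comparison of the libraries that follows, and its part in the results was not tested.

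Nearly every Malat1-rich microglial cell carried several of the 7 transcripts. A UMI of at least 1 of them was present in 99.9% of cells in each library, and 3 of 5744 WT cells and 1 of 1780 LI cells had none. The median cell held all 7, and all 7 were seen together in 50.2% of WT and 53.4% of LI cells. With each cell thinned to 1000 UMIs, which left out 98 WT and 10 LI cells, the median was 5 genes per cell in both libraries, and 99.9% of WT and 100% of LI cells held at least 1. Neutrophils, which should lack most of these transcripts, held at least 1 of the 7 in 80.2% (WT) and 68.4% (LI) of cells at median depths of 4844.5 and 4194 UMIs, against 4353 and 3896.5 in the microglia. After thinning, the neutrophil shares were 48.7% and 29.7%. The neutrophil shares include Selplg, which before thinning was in 68.97% of WT and 60.1% of LI neutrophils. None of the other 6 genes was found in 53.4% and 76.4% of them.

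Intervals in the following are exact 95% Poisson intervals for levels, binomial intervals for shares of cells and conditional binomial intervals for ratios, and all cover counting error only. Sparc was at 3912 (3889 to 3935) in WT and 4582 (4534 to 4629.8) in LI Malat1-rich microglia, with a UMI in 99.6% and 99.8% of cells. Olfml3, the other matrix protein, was at 1578 (1564 to 1593) and 1807 (1778 to 1838), in 98.1% and 98.8% of cells. For both secreted proteins the LI level lay above the WT interval.

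Tmem119 was at 1129.95 (1118 to 1142) in WT and 1304 (1279 to 1329.58) in LI, in 97.4% and 98.03% of cells. Fcrls was at 1721 (1705 to 1736) and 1759 (1729 to 1789), in 96.6% and 96.3% of cells. Selplg was at 1821 (1805 to 1837) and 2079 (2047 to 2111), in 98.8% and 99.2%. Of these surface proteins, Fcrls was the one whose levels in the 2 libraries were closest.

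Slc2a5 was at 239 (233 to 245) in WT and 292 (280.2 to 304) in LI, with a UMI in 62.2% and 66.3% of cells. Crybb1 was at 539 (530.5 to 548) and 615 (597 to 632), in 79.6% and 82.1%. These were the members missed in the most cells, and thinned to 1000 UMIs a UMI was left in 21.1% and 25.1% of cells for Slc2a5 and 38.3% and 42.4% for Crybb1. The same thinned shares in neutrophils were 3.48% and 0.912% for Slc2a5 and 5.22% and 1.55% for Crybb1.

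**Figure D1:**
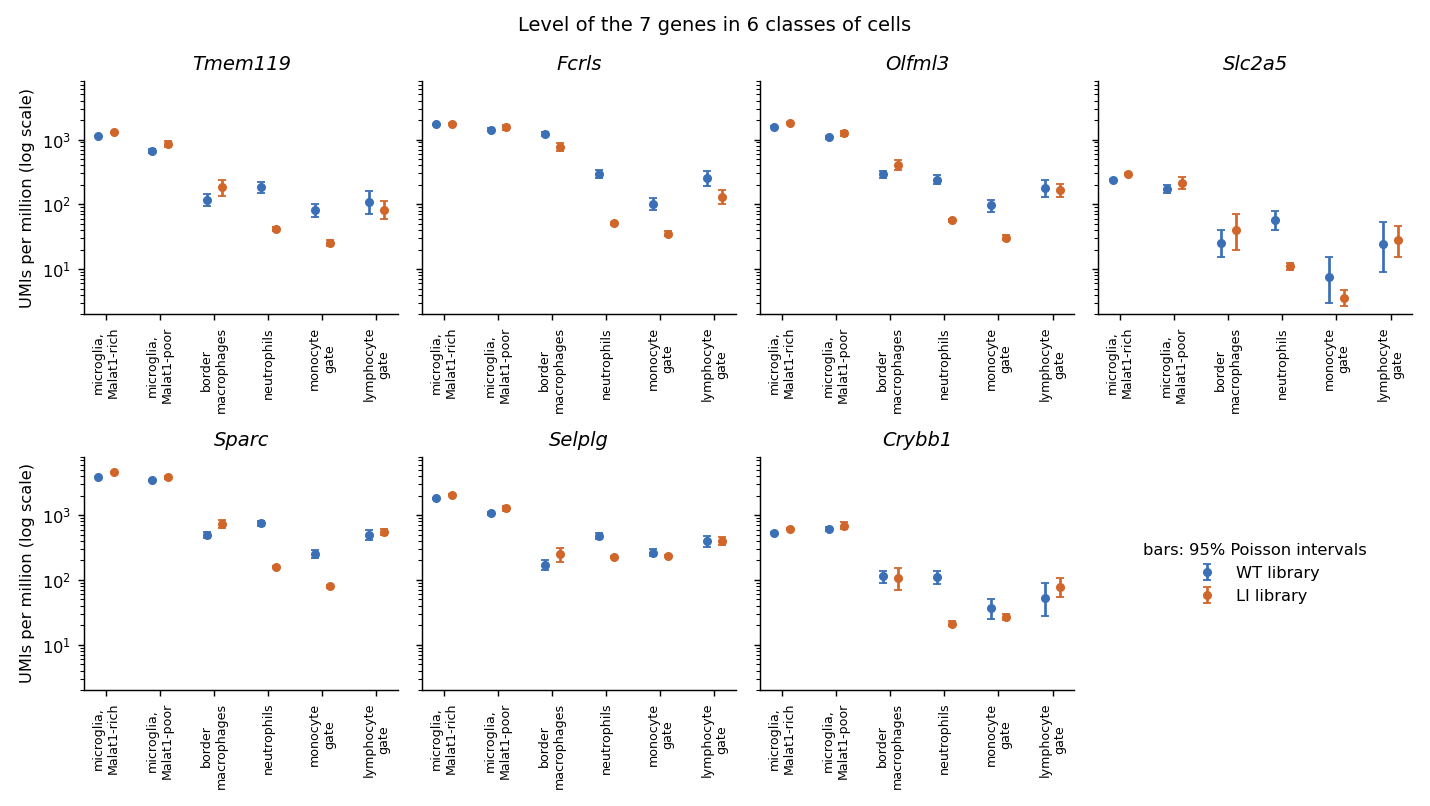
Level of each of the 7 genes (CPM, log axis) in 6 classes of cells of the WT and LI libraries, with 95% Poisson intervals as bars. All 7 were highest in the microglia, while Fcrls in border macrophages was at 1204 CPM in WT and 777 in LI, against 1721 and 1759 in Malat1-rich microglia, and Selplg was at 228 to 484 in neutrophils.

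From cell to cell, some of the 7 varied more than counting alone gives. At 1000 UMIs per cell, where counting alone would give a variance equal to the mean, the variance divided by the mean was 1.36 (WT) and 1.42 (LI) for Fcrls and 1.32 and 1.43 for Sparc. It was 1.21 in each library for Crybb1, 1.20 and 1.25 for Olfml3, 1.12 and 1.14 for Selplg, 1.09 and 1.19 for Tmem119, and 1.02 and 1.07 for Slc2a5. By this index, which grows with the level, Fcrls and Sparc had the highest values among the 7 in both libraries. With the excess over counting divided by the squared mean instead, the value was 0.393 (WT) and 0.337 (LI) for Crybb1, 0.211 and 0.238 for Fcrls and 0.0819 and 0.0937 for Sparc, so that Crybb1 was the highest and Sparc among the lowest. Fcrls was without a UMI more often than a Poisson count of its mean would give, with 76.7% of thinned WT cells positive against 82.2% under that count.

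How microglial identity transcripts compare between the genotypes was read from the log2 ratio of LI over WT levels in Malat1-rich microglia. All 7 genes were higher in LI, by 0.03 to 0.29 on the log2 scale, and 0 of 7 passed 1.5-fold. Across all 3611 genes with at least 50 CPM in either library, 13.8% passed 1.5-fold (1.44% higher, 12.4% lower) and 39.4% had a ratio above 1. The median of the 7 was 0.20 beside a median of -0.13 over all genes.

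The log2 ratio was 0.29 (0.22 to 0.36) for Slc2a5, 0.23 (0.21 to 0.25) for Sparc and 0.21 (0.17 to 0.24) for Tmem119. It was 0.20 (0.17 to 0.22) for Olfml3, 0.19 (0.17 to 0.22) for Selplg and 0.19 (0.14 to 0.24) for Crybb1. The intervals of these 6 genes overlapped in most pairs, whereas that of Fcrls, at 0.03 (0.00 to 0.06, the lower bound being 0.0042), lay below all of them. For Fcrls the ratio was -0.02 when the microglial gate was widened to 0.1% P2ry12 and Gpr34. Crybb1 was at 0.56, Selplg at 0.31 and Fcrls at 0.0038 among cells without any S100a8 or S100a9 UMI, of which the LI library had 118 and the WT library 5029.

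In Malat1-poor microglia, 7 of 7 were again higher in LI (43.6% of 2749 genes had a ratio above 1), with a median of 0.21 beside -0.06 over all genes. Here 0 of 7 passed 1.5-fold, against 22.1% of all genes. Tmem119 had a ratio of 0.33 (0.15 to 0.51) and Selplg of 0.24 (0.09 to 0.39). The intervals of Fcrls (-0.02 to 0.24), Slc2a5 (-0.04 to 0.70) and Crybb1 (-0.02 to 0.38) included 0, so for these genes a difference was not detectable at the depth of 146 LI cells.

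**Figure D2:**
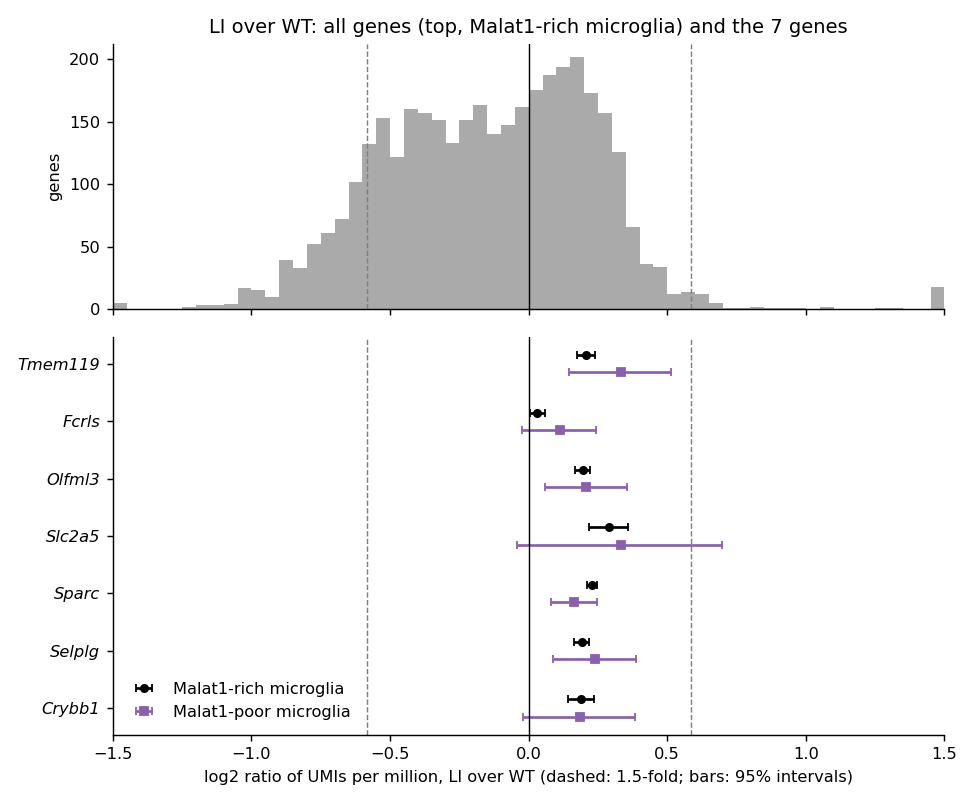
Upper panel, number of genes by log2 ratio of LI over WT in Malat1-rich microglia (3611 genes, those beyond 1.5 in either direction drawn in the end bars). Lower panel, the ratio of each of the 7 genes in Malat1-rich and Malat1-poor microglia with 95% intervals; every point lies right of 0 and left of the dashed 1.5-fold line.

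Other genes of microglia were found in both directions. Of 28 further listed microglial genes, 27 were in the tables, and 8 of them were higher and 19 lower in LI Malat1-rich microglia, with a median of -0.13 and 1 gene past 1.5-fold, the transcription factor Mef2a at -0.71 (-0.76 to -0.67). Over all 3611 genes the median was also -0.13, 39.4% had a ratio above 1 and 13.8% passed 1.5-fold. The median of the list was thus that of all genes. The purinergic receptor P2ry12 and the lysophosphatidylserine receptor Gpr34, which set the gate, were at -0.34 and -0.38, and the fractalkine receptor Cx3cr1 was at -0.22. Ltc4s, a leukotriene synthase, was at 0.47 and Trem2, a lipid receptor, at 0.29.

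Genomic length moved with the ratio. Over the 3611 genes, the Spearman correlation of the ratio with the span of the gene was -0.65, across genes of the same pair of libraries, which share depth and composition. With the genes split by span into 4 groups of equal size, the median ratio from the shortest to the longest group was 0.20, -0.01, -0.26 and -0.47. Of the 7, Tmem119 (6788 bases) was in the shortest group, Fcrls, Olfml3, Selplg and Crybb1 (12981 to 15780 bases) in the next, and Slc2a5 and Sparc (24887 and 28684 bases) in the third. Against genes of their own span group, Tmem119 stood at the 51.7th percentile of the ratio and Fcrls at the 55.4th, Olfml3, Selplg and Crybb1 at the 82.6th, 82.3rd and 81.8th, and Slc2a5 and Sparc at the 97.7th and 95.5th. The part of gene length in the ratios was not tested.

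The gate is a range of a continuous share and not a type, and the levels of the 7 genes moved with that share over most of its range. Just outside the gate, at 0.1 to 0.2% P2ry12 and Gpr34, lay 195 WT and 186 LI cells, and just inside, at 0.2 to 0.3%, lay 348 and 221. Sparc in WT was at 183 CPM in cells with none of the gate transcripts, 2155 just outside, 3055 just inside and 4249 at 0.8% and over. Fcrls in WT was at 192, 1035, 1186 and 1942 in the same bands, and Tmem119 at 40.7, 448, 785 and 1246. From the band of 0.05 to 0.1% to that of 0.6 to 0.8%, the level of all 7 genes was higher in each successive band in both libraries, below the cut as well as above it. From there to 0.8% and over, Crybb1 went from 577 (561 to 592) to 563 (546 to 581) in WT and from 666 (628 to 705) to 596 (535 to 662) in LI, and Fcrls in LI from 2040 (1973 to 2108) to 2038 (1925 to 2156), all with overlapping intervals.

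Within bands, the order of the libraries changed along the gate. In each of the 4 bands from 0.3% upward, 7 of 7 genes were higher in LI, with medians of 0.37, 0.32, 0.26 and 0.27 on the log2 scale, where 41.3%, 41.2%, 41.1% and 42.6% of all genes had a ratio above 1. Both gate genes were themselves lower in LI, and 1589 WT but 167 LI cells lay at 0.8% and over. A band is therefore no comparison of matched cells, and the part of this in the ratios was not tested. In the 3 bands from 0.05 to 0.3%, 6 of 7 were higher in LI, Fcrls being the exception (45.3%, 42.6% and 44.4% of all genes). Among cells with no gate transcript, 261 in WT and 1673 in LI, 2 of 7 were higher in LI and the median was -2.31 (48.5% of all genes had a ratio above 1), and from there to 0.05% 1 of 7 was (50.5% of all genes). These lowest bands held other kinds of cells than microglia, in different mixtures. Before the S100a8 and S100a9 limit, monocyte-gate cells with no gate transcript numbered 54 in WT and 1326 in LI, and border macrophages 44 and 22. The part of this mixture in the ratios was not tested.

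**Figure D3:**
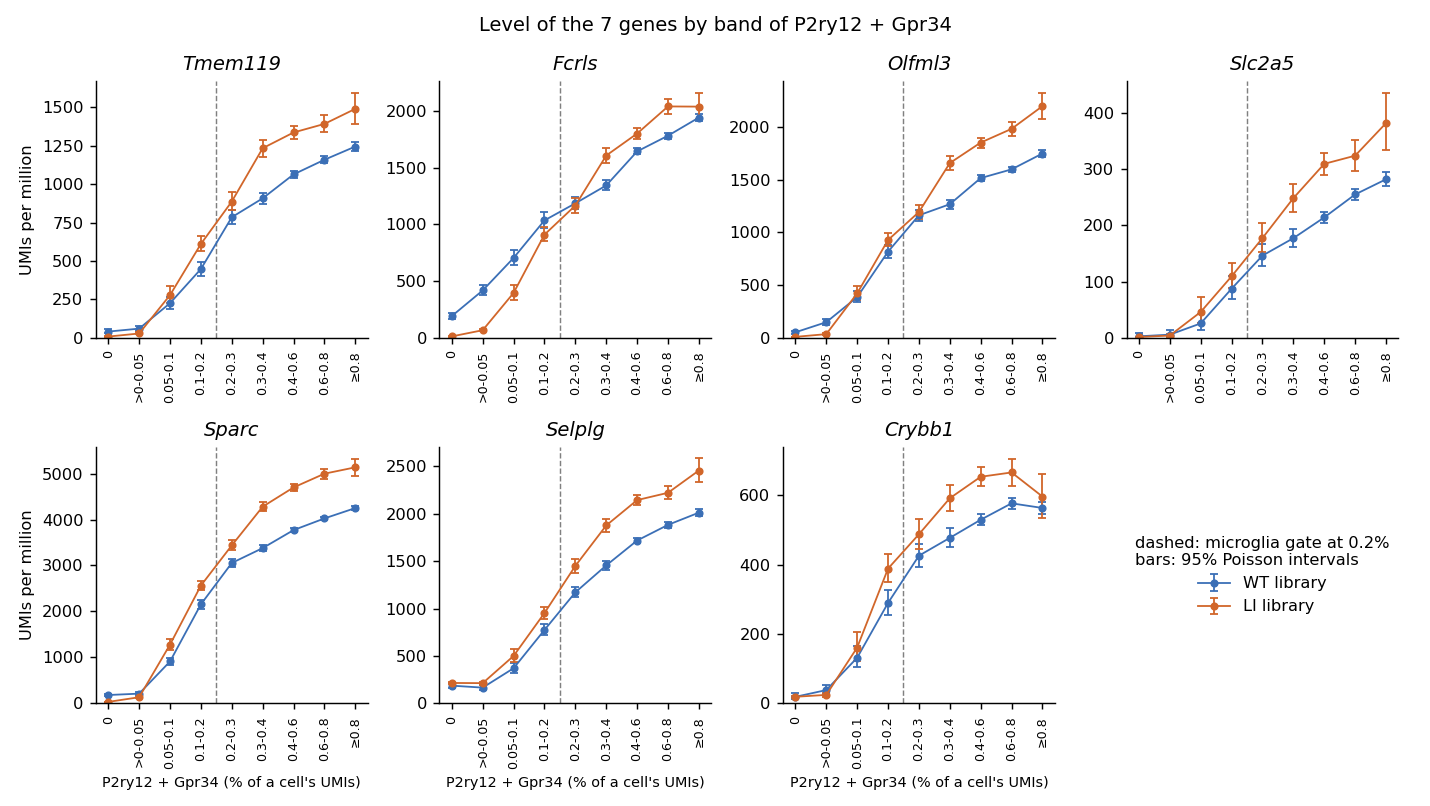
Level of each gene (CPM) by the share of a cell's UMIs from P2ry12 and Gpr34, with 95% Poisson intervals; the dashed line is the 0.2% gate, and the S100a8 and S100a9 limit is applied to all cells drawn. Above 0.3% every LI point is above the WT point.

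Malat1-poor microglia, cells nearly without this nuclear RNA and with fewer UMIs (medians 2711 WT and 2320.5 LI), held all 7 transcripts in other proportions. Their median mitochondrial share was 1.96% in WT and 1.59% in LI, against 0.827% and 0.671% in Malat1-rich cells. Median genes per cell were 1136 and 955.5, against 1988 and 1730. The part of RNA quality in the proportions was not tested. Few cells lay near the split, 6 WT and 8 LI cells between 0.25 and 0.5% Malat1 and 14 and 36 between 0.5 and 1%. In both libraries 6 of 7 genes were lower and Crybb1 was higher in the Malat1-poor cells, beside 30.6% (WT) and 32.3% (LI) of all genes with a ratio above 1. The median of the 7 was -0.48 in WT and -0.43 in LI, beside -0.37 and -0.30 over all genes.

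Tmem119 was at 669 (626 to 714) in WT and 842 (754 to 938) in LI Malat1-poor cells, -0.76 and -0.63 relative to Malat1-rich cells. Selplg was at 1079 and 1273, -0.75 and -0.71. These 2 of 7 were lower by 1.5-fold or more, as were 39.6% of 3590 genes in WT and 34.8% of 3207 in LI. Olfml3 (-0.54 and -0.53) and Slc2a5 (-0.48 and -0.43) were intermediate, and Fcrls (-0.27 and -0.19) and Sparc (-0.18 and -0.25) were the closest to their Malat1-rich levels among those that were lower. Crybb1 was at 604 (564 to 647) and 686 (607 to 773), with ratios of 0.16 (0.06 to 0.27) in WT and 0.16 (-0.02 to 0.34) in LI. In both libraries Selplg and Tmem119 stood at the low end and Crybb1 at the high end.

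Microglial states were read as cells with at least 0.1% of UMIs from at least 2 genes of a list. In the 24 WT and 11 LI cells with disease-associated transcripts (the list of Cst7, Lpl, Itgax, Spp1, Gpnmb, Clec7a, Axl and Ccl6), 6 of 7 and 7 of 7 genes were lower than in the remaining Malat1-rich cells. The median was -0.49 in WT and -0.45 in LI, beside -0.03 and 0.05 over all genes, and 51.9% and 47.6% of all genes were lower. Selplg was at -0.50 (-0.69 to -0.31) and -0.62 (-0.98 to -0.29) and Crybb1 at -0.49 (-0.86 to -0.15) and -1.23 (-2.10 to -0.48). Fcrls was at 0.06 (-0.10 to 0.22) and -0.18 (-0.50 to 0.14), both intervals including 0. The intervals of Slc2a5 (-1.03 to 0.03 and -2.18 to 0.02) and of Olfml3 in LI (-0.40 to 0.22) included 0 too. Median depth was 6141.5 UMIs in these WT cells against 4350.5 in the remaining ones, and 4842 against 3895 in LI. The part of depth was not tested.

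Cells with interferon-response transcripts (39 WT and 14 LI) had 6 of 7 genes lower in each library, with medians of -0.17 and -0.28 beside -0.01 and 0.09 over all genes, of which 51.4% and 44.6% were lower. Fcrls was at -0.30 (-0.48 to -0.12) and -0.60 (-0.97 to -0.26) in these cells. The gene that was not lower was Crybb1 in WT, at 0.05 (-0.24 to 0.33), and Selplg in LI, at 0.21 (-0.03 to 0.45). Among the lower genes, the intervals of Tmem119, Olfml3, Slc2a5 and Selplg in WT and of Olfml3 and Crybb1 in LI included 0. Cells with immediate early transcripts were far more frequent, 2076 WT and 770 LI cells, and 6 of 7 genes were lower in each library with medians of -0.02 and -0.07, beside a median of -0.02 over all genes in each, of which 58.4% and 57.1% were lower. Tmem119 was higher in them, at 0.08 (0.05 to 0.11) and 0.12 (0.07 to 0.18), and Crybb1 lower, at -0.14 (-0.19 to -0.10) and -0.27 (-0.35 to -0.19). Fcrls was lower too, at -0.14 and -0.18. Each of the 7 genes had the same direction in both libraries, and the intervals of Olfml3 and Selplg included 0 in each.

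Border macrophages, the macrophages of meninges, choroid plexus and vessels, set Fcrls apart from the other 6 genes. Fcrls was at 1204 (1127 to 1285) in WT and 777 (676 to 888) in LI border macrophages, with a UMI in 87.7% and 69.4% of cells. Its level in Malat1-rich microglia was 1.43 times and 2.26 times that. The other 6 genes were 4.76 to 10.5 times higher in microglia in WT and 4.47 to 8.38 times in LI. At least 10-fold were 1 of 7 in WT, Selplg, and 0 of 7 in LI, against 0.915% of 3824 and 0.604% of 3479 genes. With all 7 genes, the median of the log2 ratio was 2.97 and 2.66, beside 0.29 and 0.32 over all genes.

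Border macrophage markers summed to 7309 CPM in the WT and 3945 in the LI cells of this gate. Neutrophil markers summed to 1961 CPM in the WT and 37025 in the LI border macrophages, and the microglial marker list to 3943 and 3825, with every gene of the list detected in each. Of these cells 2 in WT and 7 in LI were in the neutrophil gate as well. Border macrophages without any P2ry12 or Gpr34 UMI numbered 44 in WT and 22 in LI. Fcrls was at 1036 (870.4 to 1224) in the WT cells, from 138 UMIs in 34 of 44 cells, beside 13 Sparc UMIs. In the LI cells it was at 251 (162 to 370.3), from 25 UMIs in 13 of 22 cells, beside 3 Sparc UMIs. In these cells 6 of 7 genes in WT, all but Fcrls, and 5 of 7 in LI, all but Fcrls and Slc2a5, were at least 10-fold lower than in microglia, against 1.28% and 1.24% of all genes. These calls rest on few UMIs, in WT 1 of Slc2a5, 4 of Tmem119, 6 of Crybb1 and 18 each of Olfml3 and Selplg. LI had 2 UMIs of Crybb1, 10 of Tmem119, 13 of Selplg and 18 of Olfml3. For WT the lower log2 bounds of Slc2a5 (2.51), Crybb1 (2.46), Olfml3 (2.89) and Selplg (3.09) lay below 10-fold. Slc2a5 had no UMI in the LI cells and was at least 9.70 times lower, taking 3 UMIs as the limit of a count of 0.

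The 7 genes parted in the LI over WT ratio in border macrophages. Fcrls was at -0.63 (-0.85 to -0.42), and Tmem119 (0.65, 0.12 to 1.17), Olfml3 (0.49, 0.14 to 0.82), Sparc (0.54, 0.28 to 0.79) and Selplg (0.52, 0.07 to 0.95) were above 0. Slc2a5 (0.66, -0.55 to 1.81) and Crybb1 (-0.10, -0.76 to 0.53) were not distinguishable from 0 at this depth. Past 1.5-fold were 3 of 7, 2 higher (Tmem119 and Slc2a5) and 1 lower, against 34.3% of 3254 genes, 8.85% higher and 25.4% lower. The LI values rest on 49 cells, and the part of their neutrophil RNA was not tested. Of these LI cells, 6 held 5 or 6 of the 6 genes other than Selplg and carried 63.1% of the UMIs of these genes. In WT, 12 of 179 cells held that many and carried 25.4%. Sparc had a UMI in 36.9% of WT and 32.7% of LI cells. The intervals treat UMIs as independent, and the part of these few cells in the ratios was not tested. Without gate, S100a8 or S100a9 UMIs, 38 WT and 3 LI cells were left. Fcrls was at 1171 (975 to 1396) and 719 (264 to 1564) CPM in them, with overlapping intervals. The summed border macrophage markers were also lower in LI, at 3945 CPM against 7309 in WT, and the part of this was not tested.

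Neutrophils held transcripts of all 7 genes, at levels that differed between the libraries. In WT, levels ran from 56.96 CPM (Slc2a5) to 757 (Sparc), and 0 of 7 were at least 10-fold higher in microglia, against 0.735% of 3948 genes. In LI they ran from 11.03 (Slc2a5) to 228 (Selplg), and 6 of 7, all but Selplg at 9.12-fold, were at least 10-fold higher in microglia, against 11.8% of 3510 genes. All 7 were lower in LI than in WT, with log2 ratios of -1.09 for Selplg and -2.53 to -2.09 for the others, and 7 of 7 were lower by 1.5-fold or more, against 35.2% of 2433 genes. The microglial marker list moved the same way, at 4387 in WT and 753 in LI neutrophils.

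Most of these UMIs came from few cells. In LI, 137 of 3622 neutrophils (3.78%, 3.18 to 4.46%) held 5 or 6 of the 6 genes other than Selplg, and these cells carried 76.8% of the UMIs of the 6 genes in the class. In WT, 24 of 116 neutrophils (20.7%, 13.7 to 29.2%) held that many and carried 94.1% of these UMIs. No UMI of the 6 was found in 76.4% of LI and 53.4% of WT neutrophils. In neutrophils without a P2ry12 or Gpr34 UMI, 68 in WT and 3079 in LI, the 6 genes were at or below 60.9 and 21.1 CPM. There 6 of 7 (WT) and 7 of 7 (LI) were at least 10-fold higher in microglia, against 14.1% and 14.9% of all genes.

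**Figure D4:**
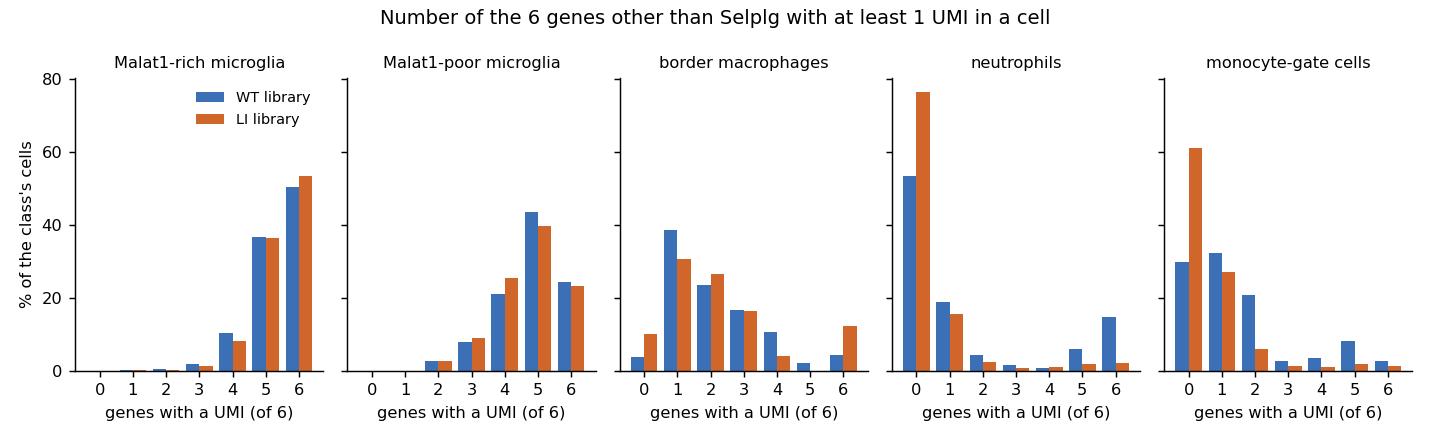
Percentage of the cells of 5 classes (bars, WT and LI) that held a given number of the 6 genes other than Selplg. Microglia pile up at 5 and 6 genes, while neutrophils peak at 0, with 20.7% of WT and 3.78% of LI cells at 5 and 6 genes.

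Selplg was the exception among neutrophils. It was at 484 (433 to 539.9) in WT and 228 (222 to 234) in LI, with a UMI in 68.97% and 60.1% of cells. Without P2ry12 or Gpr34 UMIs it was still at 240.4 (188 to 303) and 185 (179 to 192), in 58.8% and 58.2% of cells. By then every other member was in at most 17.6% of WT and 8.996% of LI neutrophils.

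Ratios between members within a class do not depend on its total. Per 100 Sparc UMIs, LI Malat1-rich microglia held 28.5 Tmem119 UMIs and LI neutrophils 26.3 (24.4 to 28.3). For Olfml3 the values were 39.4 and 35.6 (33.3 to 37.97), for Slc2a5 6.38 and 6.90 (6.03 to 7.88), and for Crybb1 13.4 and 13.2 (11.97 to 14.6). Fcrls was at 38.4 and 31.6 (29.5 to 33.9). For these 5 genes the proportions in neutrophils stayed near those in microglia, with Tmem119, Fcrls and Olfml3 a little below and Slc2a5 and Crybb1 within the interval. Selplg was at 45.4 in microglia and 143 (137 to 149) in LI neutrophils, and at 46.5 and 63.96 (55.5 to 73.7) in WT.

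In border macrophages the same ratio put Fcrls at 240.4 (213 to 272) in WT and 107 (87.8 to 131) in LI, against 43.98 and 38.4 in microglia. Olfml3 was also above its microglial proportion there, at 57.7 (48.6 to 68.4) and 55.8 (43.8 to 70.7) against 40.3 and 39.4. Tmem119 at 23.1 (18.1 to 29.3) and 25.1 (18.05 to 34.4) and Slc2a5 at 5.05 (3.01 to 8.003) and 5.53 (2.72 to 10.1) had intervals that reached their microglial values. Crybb1 was at 22.6 (17.6 to 28.7) in WT and 14.6 (9.51 to 21.6) in LI against 13.8 and 13.4. Over all cells of the class, Selplg was below its microglial proportion, at 34.6 (28.1 to 42.3) and 34.2 (25.6 to 45.2) against 46.5 and 45.4. In border macrophages without P2ry12 or Gpr34 UMIs Selplg was above it, at 138 (64.1 to 307) in WT and 433 (119 to 2371) in LI. These 2 values rest on 13 Sparc UMIs in WT and 3 in LI, so the direction for Selplg depended on which cells were taken.

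**Figure D5:**
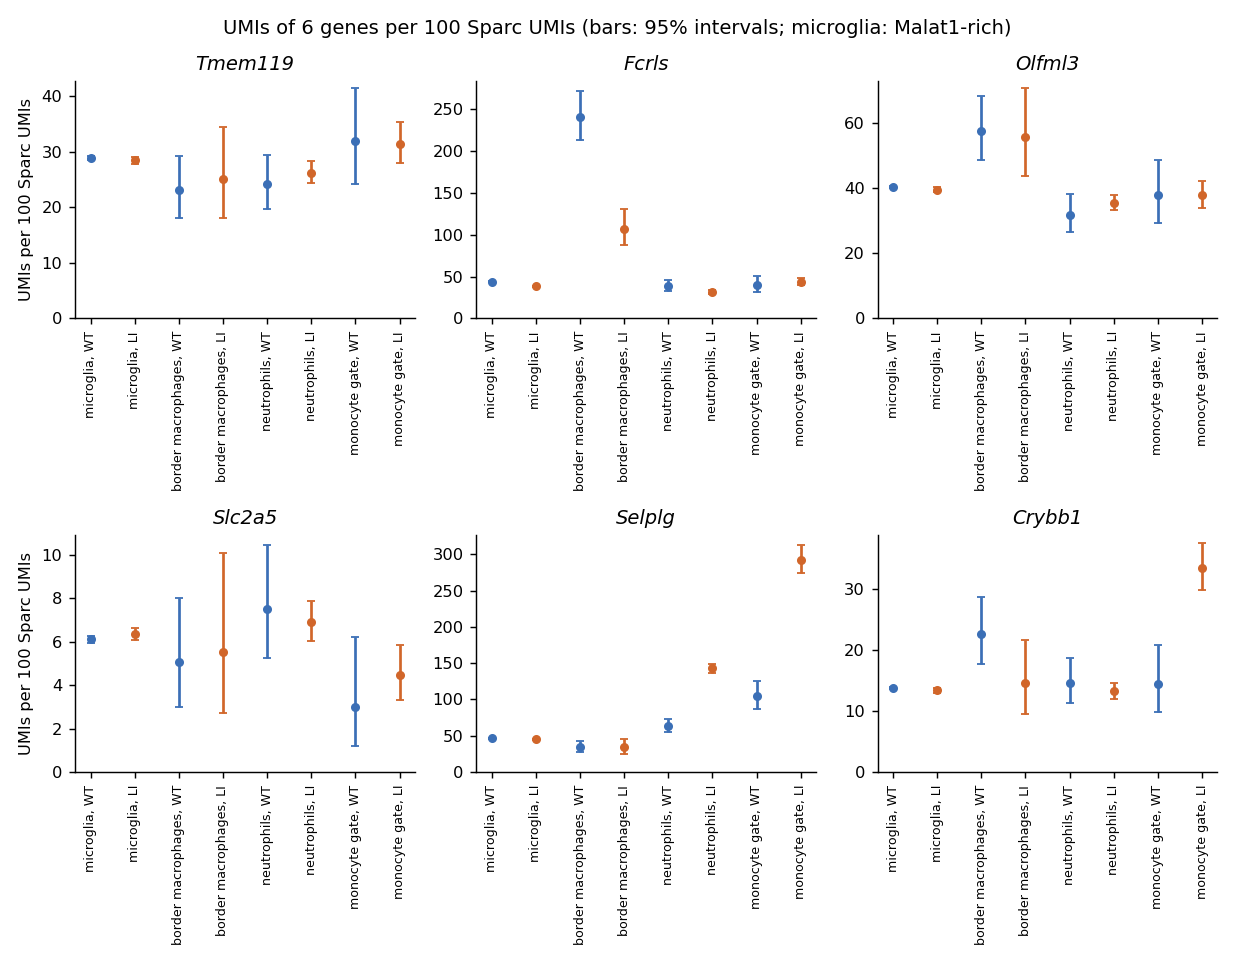
UMIs of 6 genes per 100 Sparc UMIs in Malat1-rich microglia, border macrophages, neutrophils and monocyte-gate cells of each library, with 95% intervals. Fcrls stands out in border macrophages, Selplg in neutrophils and monocyte-gate cells, and Crybb1 in LI monocyte-gate cells at 33.5.

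Cells with at least 3 of 6 monocyte markers and in none of the gates above numbered 111 in WT and 1609 in LI. Monocytes are the blood-borne macrophage precursors. Selplg was at 264 (232 to 299) and 235 (227 to 243) in them, with a UMI in 66.7% and 76.2% of cells. The other 6 genes ran from 7.54 to 253 in WT and from 3.58 to 80.3 in LI. At least 10-fold higher in microglia were 6 of 7 in each library, all but Selplg, against 2.89% of 4043 and 6.5% of 3616 genes.

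Selplg and Crybb1 stood above their microglial proportions in the LI monocyte-gate cells. Per 100 Sparc UMIs, Selplg was at 292 (274 to 312) there against 45.4 in LI microglia, Crybb1 at 33.5 (29.9 to 37.5) against 13.4, and Slc2a5 lower, at 4.46 (3.33 to 5.85) against 6.38, while Tmem119 (31.4), Fcrls (43.7) and Olfml3 (37.8) stood closer to their microglial values of 28.5, 38.4 and 39.4. Without P2ry12 or Gpr34 UMIs, 1326 LI cells were left, with 226 Crybb1 UMIs beside 218 of Sparc, or 104 (85.7 to 125) per 100. In LI neutrophils without gate UMIs Crybb1 was at 22.6 (17.5 to 28.9) per 100, also above the microglial 13.4. The Crybb1 UMIs were spread over 182 of these cells (13.7%, 11.9 to 15.7%), against 74 of 3079 LI neutrophils without gate UMIs (2.40%, 1.89 to 3.01%) at median depths of 6913.5 and 3828 UMIs. The 54 WT cells without gate UMIs held 6 Crybb1 and 22 Sparc UMIs, 27.3 (9.05 to 69.4) per 100. Over all WT monocyte-gate cells Crybb1 was at 14.5 (9.79 to 20.8) per 100, near the 13.8 of WT microglia. In CPM, Crybb1 was low in LI monocyte-gate cells, at 26.9, and at 19.2 without gate UMIs, where Sparc was at 18.6. Cycling genes summed to 1076 CPM in WT and 742 in LI monocyte-gate cells, and their part in this was not tested.

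Lymphocyte-gate cells (at least 3 of 8 markers, 56 WT and 108 LI cells) also held Selplg, at 398 (324 to 485) and 405 (352 to 465) CPM. Without gate UMIs it was at 349.5 (249.7 to 476) in 31 WT cells and 380.4 (313 to 458) in 77 LI cells. Sparc was then at 105 (54.2 to 183) and 126 (88.5 to 173), and the remaining 5 genes at 0 (Slc2a5, with 3 UMIs as the limit of a count of 0) to 87.4 in WT and 3.396 to 16.98 in LI. Over all cells of each class, Selplg was the member that border macrophages, neutrophils, monocyte-gate and lymphocyte-gate cells each carried at 173 CPM or more. In border macrophages it went from 173 in WT and 248 in LI to 135 (80.1 to 214) and 130 (69.5 to 223) without gate UMIs.

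Across the 14 groups of cells (7 classes in each library), the patterns of the 7 genes were compared by Pearson correlation of log2(CPM + 10). The correlations are given as a description, since the groups share libraries and may share free RNA, which was not measured. Fcrls and Selplg were the pair least alike (r = 0.67), and Olfml3 and Sparc the most alike (0.99). Among 5180 genes, the closest to Fcrls were Rnase4 (0.99), Ltc4s (0.99) and Slco2b1 (0.99). Closest to Tmem119 were Siglech (0.99), Fscn1 (0.98) and Sparc (0.98). Among the closest to Olfml3 were Siglech (0.99) and Sparc (0.99), and among the closest to Sparc were Olfml3 (0.99) and Tmem119 (0.98). Slc2a5 was closest to Thrsp (0.99), Gal3st4 (0.98) and Tmem119 (0.98), and Crybb1 to Ctsl (0.99), Ldhb (0.98) and Phyhd1 (0.98). Selplg had looser neighbours, Rtn4rl1 (0.97), Sall3 (0.95) and Adgrg1 (0.95).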

How the data were processed

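Counts of UMIs per gene and barcode were used as deposited. The authors made them from 10x 3′ libraries (version 3 or 3.1 chemistry, the version of each library not given in the sources used here) with Cell Ranger (6.1.2 in the file header) and STAR on mouse build mm10, and the labels also name Seurat 3.0.1. The 7038 and 7834 barcodes are more than the study's methods count in all. The 7 genes and all lists were chosen with earlier results of these data known. Genes named in the text are the 7 members, the gate genes, listed microglial genes where a value was needed, and the 3 genes most correlated with each member.

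UMIs were summed per library and class of cells, and levels (CPM) are per 1000000 UMIs of that sum. With 1 library per genotype no test was run, and exact 95% intervals cover counting error only. A gene was called past 1.5-fold between libraries or states and past 10-fold between classes, among genes with at least 50 CPM in either group, and a count of 0 was set to 3. Monocyte and lymphocyte gates took at least 3 of 6 and 3 of 8 markers outside the other gates. Marker lists covered microglia, border macrophages, neutrophils, monocytes, lymphocytes, erythroid, cycling, endothelial, astrocyte and oligodendrocyte genes. Doublets were not removed, the methods describe no such step, and leaving out the 5% of cells with the most UMIs is 1 of the alternatives. Gene positions came from GENCODE M21 (32235 identifiers matched). The depth was 33601957 and 47731571 UMIs. Ratios and intervals were tested on simulated data. Matplotlib 3.10.9, pandas 2.3.3, scipy 1.17.1 and numpy 2.4.6 under Python 3.11.15, and edgeR 4.0.16 (TMM factors only) served for this. Alternatives covered cell filters, gates, Malat1 splits, scaling and thinning, and 1 (neutrophils and border macrophages without gate UMIs) was added after seeing the data. The values of 1 listed gene, and an added alternative that used it, are not reported here.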

Additional observations from a re-analysis of the deposited data

Results flagged for a closer look

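The LI over WT log2 ratio had opposite signs, with intervals that did not include 0, in Malat1-rich microglia and in other cells of the same libraries for 18 pairs of gene and class, and the difference was not tested. Of the 7 genes, 0 did so in Malat1-poor microglia, 1 in border macrophages and 7 in neutrophils. In monocyte-gate, lymphocyte-gate and remaining cells 4, 1 and 5 did so. Of all genes, 60.1%, 68.8%, 52.1%, 69.7% and 57.8% were lower in LI from border macrophages to remaining cells, in that order. The share of all genes with opposite signs was not computed, so the counts of the 7 genes cannot be read as particular to them. Fcrls was at 0.03 in microglia and -0.63 in border macrophages. Its microglial ratio had a lower bound of 0.0042 and was -0.022 with the gate at 0.1% of P2ry12 and Gpr34. The opposite signs listed for Fcrls therefore depended on the gate. In neutrophils the ratios were -2.12 for Tmem119, -2.53 for Fcrls, -2.09 for Olfml3, -2.37 for Slc2a5, -2.24 for Sparc, -1.09 for Selplg and -2.39 for Crybb1, against 0.03 to 0.29 in microglia. In monocyte-gate cells they were -1.68 for Tmem119, -1.53 for Fcrls, -1.66 for Olfml3 and -1.66 for Sparc, and in lymphocyte-gate cells -0.96 for Fcrls. In the cells of no gate they were -0.46 for Tmem119, -0.83 for Fcrls, -0.67 for Olfml3, -0.36 for Sparc and -0.33 for Selplg. The share of neutrophils with 5 or 6 of the 6 genes other than Selplg moved with the neutrophil values, at 20.7% in WT and 3.78% in LI. The summed microglial markers did so too, at 4387 and 753 CPM. In monocyte-gate cells that share was 10.8% in WT and 3.23% in LI, and these cells carried 60.9% and 61.5% of the UMIs of the 6 genes. The microglial markers summed to 1939 and 597 CPM there. The part of these shares and markers in the ratios was not tested. With 1 library per genotype no sample could be compared with others of its group.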

How the results depend on the processing

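No paired analysis was possible because each genotype had 1 library. Genotype cannot be told apart from library preparation, sorting or the pool of mice. Of 105 recomputed ratios of single genes in Malat1-rich microglia, 7 genes under 15 alternatives, 104 were above 0, the exception being Fcrls at -0.022 with the gate at 0.1% of P2ry12 and Gpr34. The median of the 7 was 0.15 with that gate, 0.25 with the gate at 0.4% and 0.31 with TMM scaling, which moved the ratio of every gene by 0.12. Under the other 12 it stayed within 0.17 to 0.24. These limits are the median lower and the median upper bound of the 7 single-gene counting intervals, and no interval of the median itself was computed. None of the 7 passed 1.5-fold under any of the 15, and the median in Malat1-poor microglia ran from 0.18 to 0.38. Among the 15, the changed border macrophage and neutrophil gates left the microglia as they were (5744 WT and 1780 LI Malat1-rich cells). Their microglial ratios therefore repeat the main values. Totals without mitochondrial, hemoglobin and Malat1 UMIs, like TMM, moved every gene of a comparison by the same amount. With genes of at least 10 UMIs as background, 26.7% of 13137 genes passed 1.5-fold.

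Against border macrophages, at least 10-fold were 1 of 7 in WT, but 2 with at least 1000 genes per cell, 3 with 4 of the 6 markers required, 3 without the 5% of cells with the most UMIs, 0 with TMM, 2 as a mean over cells and 6 without gate UMIs. In LI the 0 became 1 without those 5% of cells, 1 as a mean over cells, 1 when thinned and 5 without gate UMIs. Against WT neutrophils the 0 became 3 as a mean over cells, 3 when thinned and 6 without gate UMIs, and in LI the 6 stayed at 6 or 7. Of all genes, 0.915% (WT) and 0.604% (LI) were called against border macrophages in the main setting, and 1.28% and 1.24% without gate UMIs. Against neutrophils these shares were 0.735% and 11.8%, and 14.1% and 14.9% without gate UMIs. Under the other alternatives the share of all genes was not computed, so those counts cannot be read as particular to the 7. The share of microglia with a UMI of any of the 7 was 100% in WT when 500 genes were required with a 5% mitochondrial limit and when 1000 genes were required. It was 100% in LI with 1000 genes required, with the gate at 0.4%, without S100a8 or S100a9 UMIs and when thinned. The cause of these shifts was not tested.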

Other observations

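Among WT Malat1-rich microglia, Crybb1 and Tmem119 moved in opposite directions as the Malat1 share went from 2% upward. In WT, Crybb1 was at 575 CPM in cells with 2 to 3% Malat1, 522 at 3 to 4%, 465 at 4 to 6% and 403 at 6% and over, while Tmem119 was at 1122, 1161, 1174 and 1292. In LI the same bands gave 625 (594 to 657), 608, 590.2 and 489 (389 to 606) for Crybb1. For Tmem119 they gave 1323 (1278 to 1368), 1337, 1344 and 1401 (1229 to 1591), so that for Crybb1 and Tmem119 the LI intervals overlapped. Other members moved between the outer bands too. In WT, Fcrls went from 1753 (1729 to 1777) to 1539 (1398 to 1691) and Sparc from 4023 (3987 to 4059) to 3202 (2997 to 3418). In LI, Fcrls went from 1769 (1717 to 1822) to 1360 (1190 to 1547) and Olfml3 from 1846 (1793 to 1900) to 1472 (1295 to 1666). Selplg rose in LI, from 2059 (2003 to 2116) to 2361 (2136 to 2604). At 1 to 2% Malat1, Crybb1 was at 543 in WT and 642 in LI, and Tmem119 at 1030 and 1192. From there to 2 to 3%, both genes thus went up in WT. The median UMIs per cell moved with the bands, from 4860 to 2044 in WT (4219 and 3331 between them) and from 4295 to 2627 in LI (3890.5 and 3430.5 between them), and their part was not tested.

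Cells in none of the gates, 391 in WT and 510 in LI, held all 7 transcripts at levels below those of microglia. Sparc was at 1364 (1306 to 1423) and 1064 (1021 to 1108) CPM in them, with a UMI in 58.1% and 47.3% of cells, and Fcrls at 559.8 (523 to 598) and 314 (291 to 339), below the 1204 and 777 of border macrophages.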
